A study of Mus musculus with 4 samples.

Results

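The heat shock chaperones described here are 10 genes taken by symbol from the 32285 genes of the deposited matrices: Hspa1a, Hspa1b, Hsph1, Dnajb1, Dnaja1, Hsp90aa1, Hsp90ab1, Hspa8, Hspd1 and Hspa5. All 10 were found and all 10 passed the filter on low counts over all kept cells. They were measured in thymic invariant natural killer T (iNKT) cells, T lymphocytes that recognise lipids on CD1d. Live cells positive for CD3 and for a CD1d-PBS57 reagent, which carries a glycolipid that their receptors bind, were sorted from thymus of BALB/c mice and of B6 mice, both inbred strains. They were profiled with a droplet-based 5' single-cell kit, in 2 libraries per strain, called BALB/c 1, BALB/c 2, B6 1 and B6 2 below. The labels used here give no age, sex or treatment, and the labels do not say whether libraries came from separate mice. The p-values between strains therefore measure the spread between libraries, which may be technical. Those of tests with the library as a block measure the spread of differences within libraries.

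Heat shock chaperones bind unfolded proteins and help them to fold. Hsp70 proteins (Hspa genes) work with J-domain partners (Dnaj genes) and nucleotide exchange factors such as Hsph1, and hand clients on to Hsp90. Under proteotoxic stress the transcription factor HSF1 binds heat shock elements, inverted repeats of GAA, and raises the inducible members. Hspa8 and Hsp90ab1 are constitutive cytosolic members, Hspd1 is the mitochondrial Hsp60, and Hspa5 (BiP) is the Hsp70 of the endoplasmic reticulum. Following this background, Hspa1a, Hspa1b, Hsph1, Dnajb1, Dnaja1 and Hsp90aa1 are called inducible below, and Hsp90ab1, Hspa8, Hspd1 and Hspa5 constitutive or organelle members.

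Promoter windows of 300 bases, from 250 before to 50 after a RefSeq start on GRCm38.p6, were at hand for 7 of the 10 genes. They are shown because the members differ in the elements written there. Hspa1a and Hspa1b are single-exon genes on the minus strand of chromosome 17, at 34969190 to 34972156 and 34956436 to 34959238, with 9951 bases between them. Their windows differ at 4 of 300 positions (98.7% identity). The 250 bases before each start (chr17:34972157-34972406 and chr17:34959239-34959488, minus strand) are given 5′ to 3′, with the heat shock element in capitals.
Hspa1a: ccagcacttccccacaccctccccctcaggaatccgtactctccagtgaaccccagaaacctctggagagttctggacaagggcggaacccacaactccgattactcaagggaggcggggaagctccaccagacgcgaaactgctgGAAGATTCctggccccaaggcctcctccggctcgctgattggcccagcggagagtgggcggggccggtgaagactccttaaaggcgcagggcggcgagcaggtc
Hspa1b: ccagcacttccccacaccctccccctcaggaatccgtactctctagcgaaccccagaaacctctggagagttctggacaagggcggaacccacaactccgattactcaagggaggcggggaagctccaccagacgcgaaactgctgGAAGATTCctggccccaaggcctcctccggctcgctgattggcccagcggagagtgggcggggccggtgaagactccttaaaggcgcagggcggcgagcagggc
Stretches of 30 bases around matches in Hsph1 (chr5:149636287-149636316, minus strand), Dnaja1 (chr4:40722333-40722362, plus strand), Hspd1 (chr1:55088053-55088082, minus strand) and Hspa5 (chr2:34772019-34772048, plus strand) follow. Capitals mark heat shock elements, and in Hspa5 the endoplasmic reticulum stress element.
Hsph1: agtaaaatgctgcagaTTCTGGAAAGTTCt
Dnaja1: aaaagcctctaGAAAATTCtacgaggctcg
Hspd1: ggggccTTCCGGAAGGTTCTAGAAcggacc
Hspa5: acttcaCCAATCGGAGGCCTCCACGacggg
The letters searched on both strands were GAANNTTC and TTCNNGAA for the double element, 3 alternating GAA and TTC units spaced by NN for the triple element, which contains double ones, and CCAAT followed by CCACG at a fixed spacing for the stress element. They occurred in 15.1%, 0.603% and 0.119% of 32851 windows of that length. Hsph1 held the triple element in the stretch shown, 36 bases after 1 start and 15 after its other start. It also held a double element 33 and 54 bases before these starts. Hspd1 held the triple element before the start of 1 of its 2 windows. Hspd1's other window held none. Hspa1a, Hspa1b and 1 of 3 windows of Dnaja1 held the double element alone, Hspa5 held the stress element, and neither window of Dnajb1 held any of them. A match describes the letters only.

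Filtering kept 1864 BALB/c 1 and 1913 BALB/c 2 cells, against 2328 B6 1 and 8790 B6 2 cells, from libraries of 20406245 to 82904358 UMIs. BALB/c cells were deeper, with medians of 11003.5 and 9131 UMIs, against 7016 and 6922.5 UMIs for B6 cells. Any pair of libraries shared between 4 and 33 barcodes. Because 74.6% of the 50-base windows among the first 500 of each Hspa1 transcript are shared with the other gene, the split of reads between Hspa1a and Hspa1b is uncertain, and their sum is given as Hspa1. Hspa1a took 36.8% and 36.1% of Hspa1 UMIs in BALB/c 1 and 2, against 31.9% and 32.5% in B6 1 and 2.

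Over all kept cells, BALB/c libraries held more of every chaperone than B6 libraries, with the highest fold changes for Hspa1a and Hspa1b. Hspa1a had 75.4 and 161 CPM (UMIs per 1000000 UMIs of the library) in BALB/c 1 and 2, against 9.09 and 6.46 CPM in B6 1 and 2. Hspa1b had 129 and 284 CPM in BALB/c, against 19.4 and 13.4 CPM in B6. Both BALB/c libraries lay above both B6 libraries, and BALB/c 2 lay above BALB/c 1. On the log2 scale, BALB/c over B6, Hspa1a was higher by 3.98 ± 0.48 (SE, adjusted p = 0.0293) and Hspa1b by 3.70 ± 0.49 (adjusted p = 0.0313), from edgeR's quasi-likelihood test with Benjamini-Hochberg adjustment over 12878 genes. In this test 6 of the 10 members rose and none fell, where 7.28% of all genes tested were called, 3.64% as higher and 3.63% as lower.

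The partners of Hsp70 had smaller fold changes. Hsph1, the Hsp110 exchange factor, had 205 and 273 CPM in BALB/c, against 86.0 and 111 CPM in B6, a log2 change of 1.32 ± 0.19 (edgeR adjusted p = 0.0369). Dnaja1, an Hsp40 of the cytosol, had 638 and 815 CPM in BALB/c, against 404 and 359.8 CPM in B6, a log2 change of 0.96 ± 0.17 (adjusted p = 0.0481). Both passed the test. Dnajb1, the Hsp40 induced with Hspa1 in heat shock, had 164 and 234 CPM in BALB/c, against 107 and 97.3 CPM in B6. Its log2 change of 1.00 ± 0.20 did not pass (adjusted p = 0.0632). Hsp90aa1, the inducible Hsp90, had 513 and 689 CPM in BALB/c, against 304 and 352 CPM in B6, and its 0.91 ± 0.17 did not pass either (adjusted p = 0.0566).

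Among the constitutive and organelle members, the cytosolic Hsp90ab1 had 3441 and 3669 CPM in BALB/c, against 2304 and 2288 CPM in B6, and rose by 0.67 ± 0.08 (log2, edgeR adjusted p = 0.0297). Hspd1 had 363 and 387 CPM in BALB/c, against 229 and 214 CPM in B6, and rose by 0.80 ± 0.10 (adjusted p = 0.0294). Hspa8 had 3024 and 3299 CPM in BALB/c, against 2344 and 2438 CPM in B6, with a log2 change of 0.44 ± 0.09 that did not pass (adjusted p = 0.0574). Hspa5 had 563 and 505 CPM in BALB/c, against 394 and 462 CPM in B6, with 0.36 ± 0.10 (adjusted p = 0.112). Both BALB/c libraries lay above both B6 libraries for all 10 genes, 4 of which missed the threshold, and also for 26.9% of all genes tested. Inducible members had a median log2 change of 1.16 and constitutive or organelle members 0.56, beside -0.02 over all genes tested.

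The member calls over all cells were lost when either BALB/c library was left out, as were the calls of all other genes. In those fits the spread came from the B6 pair alone, so the loss does not show which libraries the calls rested on. Without B6 1 or B6 2 the spread came from the BALB/c pair alone. Genes called moved widely between these fits, so member counts in them are not read. The direction of each member was the same in these 4 fits. DESeq2 called all 10 members, and more genes in all than edgeR, as the last section gives.

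**Figure D1:**
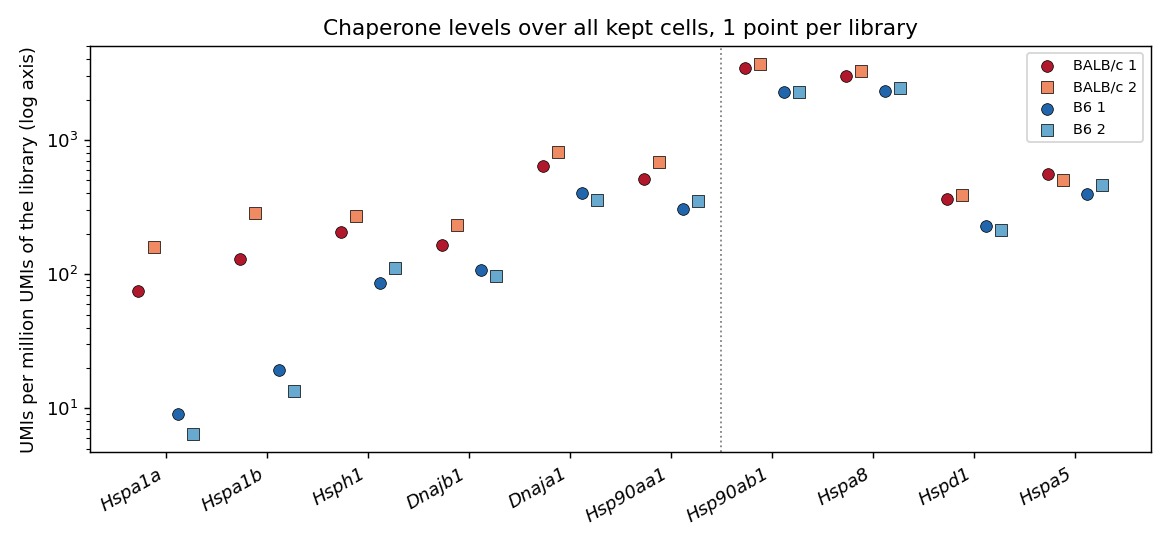
Level of each chaperone over all kept cells in CPM on a log axis, with 1 point per library, BALB/c left of B6. The dotted line separates inducible from constitutive or organelle members. Hspa1a spans 75.4 to 161 in BALB/c and 6.46 to 9.09 in B6, whereas Hspa8 spans 3024 to 3299 and 2344 to 2438.

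The strains differed in their mix of iNKT subsets, so the members were also compared within 5 classes named from marker genes. iNKT1-like cells made up 14.9% and 31.1% of BALB/c cells, against 58.6% and 52.0% of B6 cells, and iNKT2-like cells 47.1% and 36.2%, against 7.77% and 10.4%. Hspa1a and Hspa1b rose in all 5 classes. In iNKT1-like cells, Hspa1 stood at 359 and 689.5 CPM in BALB/c, against 36.6 and 21.9 CPM in B6. In iNKT2-like cells it stood at 146 and 349.7 CPM, against 15.8 and 21.6 CPM, and in iNKT17-like cells at 421 and 771 CPM, against 23.5 and 8.20 CPM. The difference was therefore present within each of these subsets.

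In iNKT1-like cells 7 members rose, where 2.42% of 10600 genes were called higher: all 6 inducible members and Hspd1. Hsph1 changed by 1.64 ± 0.18, Dnajb1 by 1.40 ± 0.20 and Dnaja1 by 1.27 ± 0.16 (log2, edgeR adjusted p = 0.00491, 0.0126 and 0.00827). The same 7 genes rose in iNKT17-like cells, where 2.46% of 9399 genes were called higher. In B6 1 and 2, Hspa1a rested there on 5 and 7 UMIs and Hspa1b on 16 and 10 UMIs, so the size of their folds is imprecise. In iNKT2-like cells 5 members rose (5.43% of 11762 genes were called higher), and Hsp90aa1, at 440.0 and 576 CPM in BALB/c against 398 and 458 CPM in B6, did not pass (0.35 ± 0.15, adjusted p = 0.187). In iNKT0-like cells, the immature class, 5 members rose (1.33% of 8745 genes were called higher). Hspa1a rested there on 35 and 51 UMIs in BALB/c, against 0 and 3 UMIs in B6, so its fitted fold depends on the prior count. In proliferating-like cells 4 members rose (1.01% of 8891 genes were called higher). Hspa8, Hsp90ab1 and Hspa5 passed in none of the 5 classes. Their log2 changes ran from 0.18 to 0.49 for Hspa8 and from 0.27 to 0.47 for Hsp90ab1, and Hspa5 was lower in BALB/c in iNKT1-like cells (-0.05 ± 0.11) and iNKT0-like cells (-0.10 ± 0.22), by less than its error. Without BALB/c 1 or BALB/c 2, no member kept its call in iNKT1-like or iNKT2-like cells, nor did any other gene. In iNKT17-like cells calls remained, for most of the 7 members and for other genes.

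**Figure D2:**
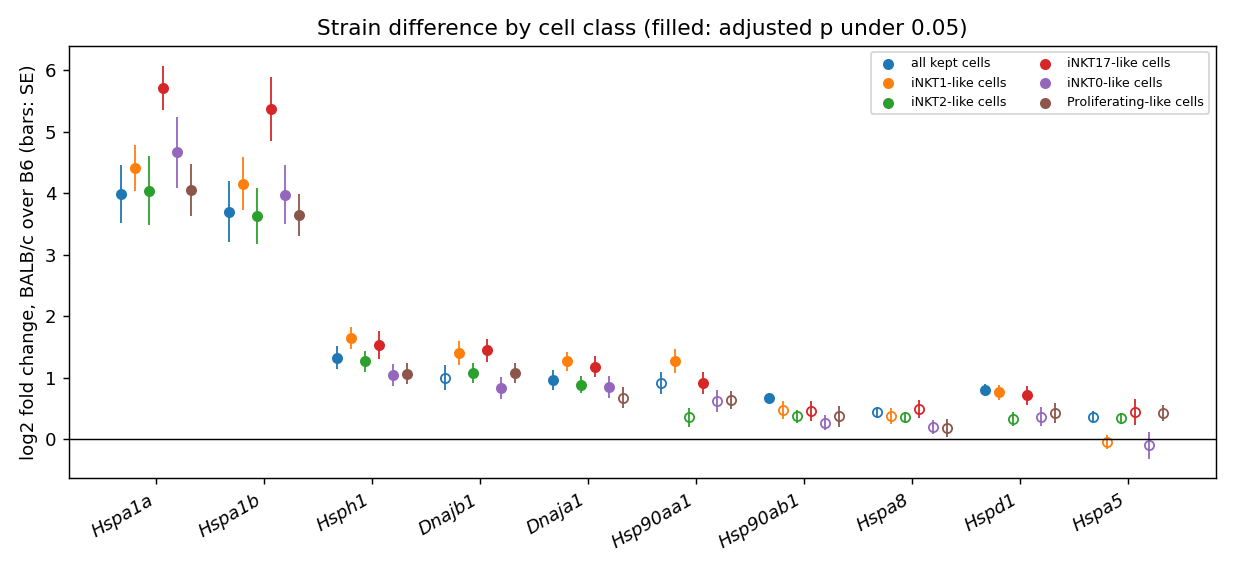
Log2 fold change of each chaperone, BALB/c over B6, over all kept cells and in 5 classes, with bars for SE. Filled points have an adjusted p under 0.05. Hspa1a and Hspa1b are filled throughout, between 3.63 and 5.71, and Hspa8 is open throughout. The 5.71 of Hspa1a in iNKT17-like cells rests on 5 and 7 UMIs in B6 1 and 2.

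Whether the strain effect differed between iNKT2-like and iNKT1-like cells was tested as an interaction with the library as a block. Of the 10 members, 7 had a smaller BALB/c excess in iNKT2-like than in iNKT1-like cells (6.8% of 12212 genes were called lower) and 1 a larger one (6.22% called higher). Hsp90aa1 differed most, with a log2 effect of 0.35 in iNKT2-like and 1.27 in iNKT1-like cells and an interaction of -0.92 ± 0.07 (edgeR adjusted p = 1.33e-15). Hspa5 went the other way, with an effect of 0.34 in iNKT2-like and -0.05 in iNKT1-like cells and an interaction of 0.37 ± 0.07 (adjusted p = 0.00011). Only these 2 members kept their call and direction under each alternative tried. The interaction of Hspa1a and Hspa1b turned to 0.653 and 0.0188 without B6 2, and those of Hsph1 and Hspd1 to 0.10 and 0.39 at a finer clustering. Clusters of a class were unevenly split between libraries. Cluster 1 holds most BALB/c and cluster 10 most B6 iNKT2-like cells. Among iNKT1-like clusters, cluster 5 holds mostly BALB/c cells and clusters 6, 7 and 16 mostly B6 cells. Clusters 7 and 16 are almost all B6 2 (1982 of 1989 and 1124 of 1129 cells). Cluster 4 is shared, with 136 and 284 cells of BALB/c 1 and 2 and 1054 and 350 of B6 1 and 2.

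Hspa1 was held by a fraction of the cells, and by a larger one in BALB/c. To remove depth, each cell was thinned to 3000 UMIs, which left 1643 and 1752 BALB/c cells, against 1968 and 7763 B6 cells. At least 1 Hspa1 UMI was found in 32.8% and 56.7% of BALB/c cells (exact 95% binomial intervals 30.5 to 35.1 and 54.4 to 59.1), against 6.35% and 3.98% of B6 cells (5.31 to 7.52 and 3.56 to 4.44). These intervals cover counting error only. The strain means differed by 39.6 percentage points, with no overlap (exact two-sided permutation p = 0.333, the smallest that 2 against 2 libraries allow). Without thinning the shares were 50.2% and 72.0% in BALB/c, against 11.4% and 7.53% in B6.

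The constitutive cytosolic members were instead found in nearly every cell. Hspa8 had a UMI in 99.9% and 99.8% of thinned BALB/c cells, against 98.9% and 98.9% of B6 cells, and Hsp90ab1 in 99.6% and 99.4%, against 98.1% and 98.1%. The other members lay between. Hsph1 was found in 40.8% and 52.3% of BALB/c cells, against 20.8% and 26.01% of B6 cells, and Dnajb1 in 38.2% and 50.6%, against 27.2% and 25.8%. Such shares follow the level of a gene as well as its spread, so each was set beside a Poisson distribution of the same mean.

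Cells without Hspa1 were more frequent than this distribution gives. They made up 67.2% and 43.3% of BALB/c 1 and 2, where the Poisson share is 48.7% and 20.7%. The 10% of cells with most Hspa1 held 59.7% and 43.0% of its UMIs in BALB/c, where a Poisson distribution gives 33.9% and 25.7%. The excess was smaller for Hsph1, of which the top 10% held 44.4% and 36.2% (Poisson 37.0% and 31.7%). For Dnajb1 it held 44.6% and 37.6% (Poisson 41.2% and 32.2%). Constitutive or organelle members had an excess too. Cells without Hsp90ab1, without Hspd1 and without Hspa5 were each more frequent in both BALB/c libraries than a Poisson distribution gives. An excess over Poisson is therefore not read as a mark of the inducible members. For Hspa1 it was also present within classes: iNKT1-like cells without Hspa1 made up 53.6% and 32.4% in BALB/c, where the Poisson share is 30.6% and 11.3%. In B6, 93.6% and 96.0% of cells had no Hspa1 UMI (Poisson 92.1% and 94.4%). The largest counts in 1 thinned cell were 32 and 20 UMIs in BALB/c 1 and 2, against 4 and 16 in B6 1 and 2.

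**Figure D3:**
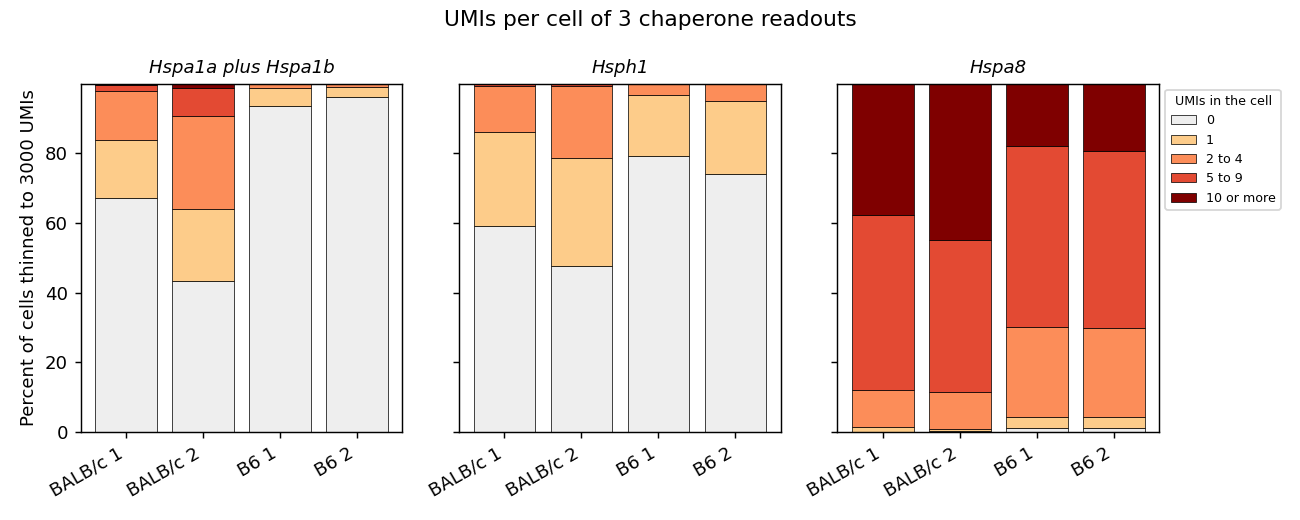
Percent of cells thinned to 3000 UMIs by their UMIs of Hspa1a plus Hspa1b, Hsph1 and Hspa8, 1 bar per library. For Hspa1 the cells at 0 make up 67.2% and 43.3% in BALB/c, against 93.6% and 96.0% in B6; for Hspa8 few cells are at 0 in any library.

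Among the 5 classes, the Hspa1-positive share in BALB/c was highest in iNKT17-like and lowest in iNKT0-like cells. It was 49.4% and 74.1% in iNKT17-like cells of BALB/c, against 4.48% and 1.82% in B6, and 46.4% and 67.6% in iNKT1-like cells of BALB/c, against 7.66% and 4.38% in B6. In iNKT2-like cells it was 26.2% and 53.3%, against 1.67% and 4.51%. In iNKT0-like cells it was 6.32% and 12.8% in BALB/c, against 0 of 67 cells (which allows up to 4.48%) and 2.40% in B6. Those cells were shallow, with median UMIs of 2850.5 and 3081 in BALB/c, against 3691 and 4495 in B6, before thinning. Double-positive thymocyte-like cells of B6 had an Hspa1 UMI in 0 of 43 and 0 of 91 thinned cells, which allows up to 6.98% and 3.30%. The exact 95% binomial upper bounds of these counts of 0 are 8.22% and 3.97%. All 5 class shares of B6 1 and its 6.35% over all cells lie below its bound. The iNKT17-like, proliferating-like and iNKT0-like shares of B6 2 lie below that of B6 2. The bounds rest on only 43 and 91 cells, so these thinned shares cannot tell expression from free RNA. No order of classes is read within B6. Without thinning, double-positive thymocyte-like cells held 0 Hspa1 UMIs in 148 cells of B6 1 and 1 in 291 cells of B6 2 (1.21 CPM). Hspa1 stood at 28.5 and 19.9 CPM over all kept cells of B6 1 and 2, and at 1.69 and 4.92 CPM in their iNKT0-like cells. The part of free RNA was not tested. Double-positive thymocyte-like cells of BALB/c gave too few cells of 3000 UMIs for a thinned share. Those of BALB/c 1 held 5 Hspa1 UMIs in 65 cells, 37.95 CPM, beside 66.3 CPM in its iNKT0-like cells, so free RNA is not told apart from expression in BALB/c iNKT0-like cells either.

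**Figure D4:**
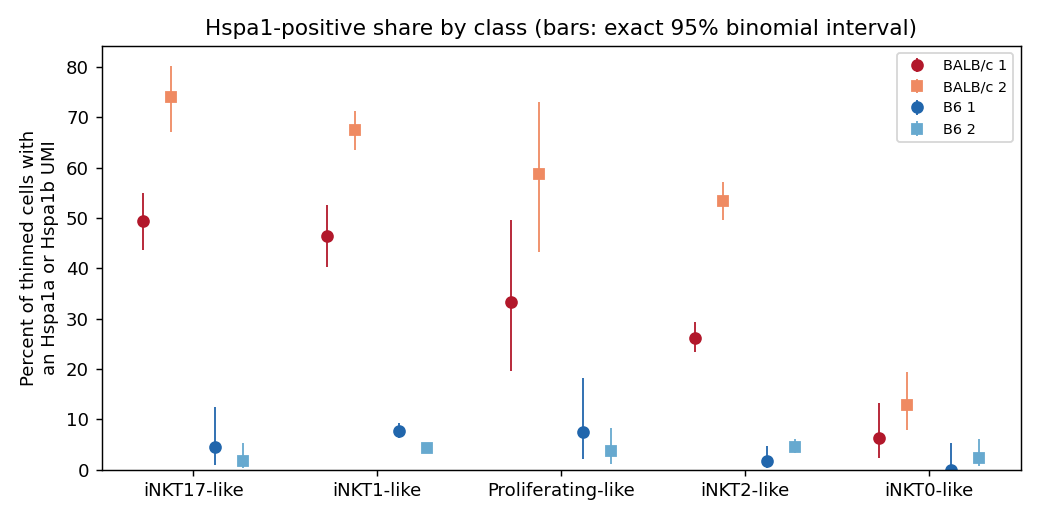
Percent of thinned cells with an Hspa1a or Hspa1b UMI in 5 classes, with exact 95% binomial intervals. BALB/c libraries lie above B6 libraries in each class, from 6.32% and 12.8% in iNKT0-like to 49.4% and 74.1% in iNKT17-like cells of BALB/c.

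Among the 5 classes compared, the other members had another order. Dnaja1 was highest in iNKT0-like cells in all 4 libraries, at 1119 and 1302 CPM in BALB/c, against 757 and 591 CPM in B6, and lowest in iNKT2-like cells, at 541 and 677 CPM, against 359.8 and 349 CPM. Among these 5 classes, Hsp90aa1, Hspa8 and Hspd1 were highest in proliferating-like cells in all 4 libraries; B cell-like cells, outside the 5, were above them for Hsp90aa1 in BALB/c 2 and B6 2 and for Hspd1 and Hspa8 in B6 2. Hsp90aa1 stood there at 1144 and 1287 CPM in BALB/c, against 779 and 875 CPM in B6. Hspa5 was highest of the 5 in iNKT17-like cells in 3 libraries and in iNKT2-like cells in B6 1, where interferon-responding-like and unnamed cells, outside the 5, stood higher; unnamed cells also did in both BALB/c libraries.

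To ask whether members move together within a library, cells with at least 2 Hspa1 UMIs were summed and set against cells with none, with the library as a block and Hspa1 removed from the fit. All 8 other members were higher in Hspa1-holding cells, where 8.37% of 12323 genes were called higher. Hsph1 had 251 and 293 CPM in holding cells of BALB/c 1 and 2 and 120.1 and 202 CPM in those of B6 1 and 2, against 156, 213, 81.9 and 103 CPM in cells with none. It was higher in holding cells of each library, with a log2 change of 0.72 ± 0.07 (edgeR adjusted p = 0.000288). Hsp90aa1 changed by 0.68 ± 0.08, Hspd1 by 0.65 ± 0.08 and Dnajb1 by 0.45 ± 0.08 (adjusted p = 0.000406, 0.000782 and 0.00334). Hspa8, Hsp90ab1 and Hspa5 rose by 0.40 ± 0.07, 0.40 ± 0.06 and 0.39 ± 0.08, and Dnaja1 by 0.25 ± 0.07 (adjusted p = 0.0281). Dnaja1 did not do so in each library: BALB/c 2 had 807 CPM in holding cells, against 847 CPM in cells with none.

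Holding cells also differed in depth and class. Their median UMIs were 12375.5 and 11088 for the BALB/c pair and 8801 and 9244 for the B6 pair, against 9225, 5418.5, 6821 and 6843 in cells with none. Only 1.60% and 1.94% of BALB/c holding cells were iNKT0-like, against 19.6% and 45.1% of BALB/c cells with none. Their median doublet score was 0.0521 and 0.0629 in BALB/c, against 0.0411 and 0.0367 in cells with none; the part of doublets was not tested. After thinning to 3000 UMIs, with 1 Hspa1 UMI or more, 6 of 8 members remained higher, where 1.29% of 10359 genes were called higher. Hsph1 (0.66 ± 0.08) and Dnajb1 (0.57 ± 0.08) changed most, Hsp90aa1 changed by 0.30 ± 0.07, Hspa5 by 0.29 ± 0.07, Hspa8 by 0.22 ± 0.06 and Hsp90ab1 by 0.18 ± 0.05, and Dnaja1 (0.21 ± 0.06, adjusted p = 0.0571) and Hspd1 (0.24 ± 0.08, adjusted p = 0.101) did not pass. Without thinning, at 2 Hspa1 UMIs or more, all 8 passed within iNKT1-like cells alone. Within iNKT2-like cells 7 did so, all but Hspa5 (0.11 ± 0.06, edgeR adjusted p = 0.281). Depth and class were not held fixed in the same fit. The genes called within these classes are given in the last section, in both directions together. No share of genes called higher stands beside these member counts, so they are not read against one.

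In thinned cells of BALB/c 1 with 5 or more Hspa1 UMIs (37 cells), Hsph1 stood at 387 CPM, against 176 CPM in the 1104 cells with none, and Dnajb1 at 351 CPM, against 150.1 CPM. In BALB/c 2 (163 cells, against 758) Hsph1 stood at 376 CPM, against 229 CPM, and Dnajb1 at 346 CPM, against 219.9 CPM. Hspd1 stood at 342 CPM, against 312.5 CPM, in BALB/c 1, and at 288 CPM, against 312 CPM, in BALB/c 2. Hspa5 stood at 559 CPM, against 519 CPM, in BALB/c 1, and at 466 CPM, against 401 CPM, in BALB/c 2. The summed level of 26 immediate early genes, which cells raise within minutes of handling, was 4946 and 4368 CPM in these cells of BALB/c 1 and 2, against 3091 and 3255 CPM in cells with none. In the unthinned sums 0 of the 26 were called higher and 6 lower in holding cells, where 8.37% of 12323 genes were called higher. After thinning 3 of 24 tested were higher and 3 lower, where 1.29% of 10359 genes were called higher. Over whole libraries their sum was 2778 and 2936 CPM in BALB/c, against 3444 and 4047 CPM in B6. Single genes went both ways there. Nr4a1 (log2 1.30 ± 0.165) and Socs3 (1.57 ± 0.26) were called higher in BALB/c, and Dusp2 (-0.99 ± 0.15) lower. The part of immediate early genes in the result was not tested.

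**Figure D5:**
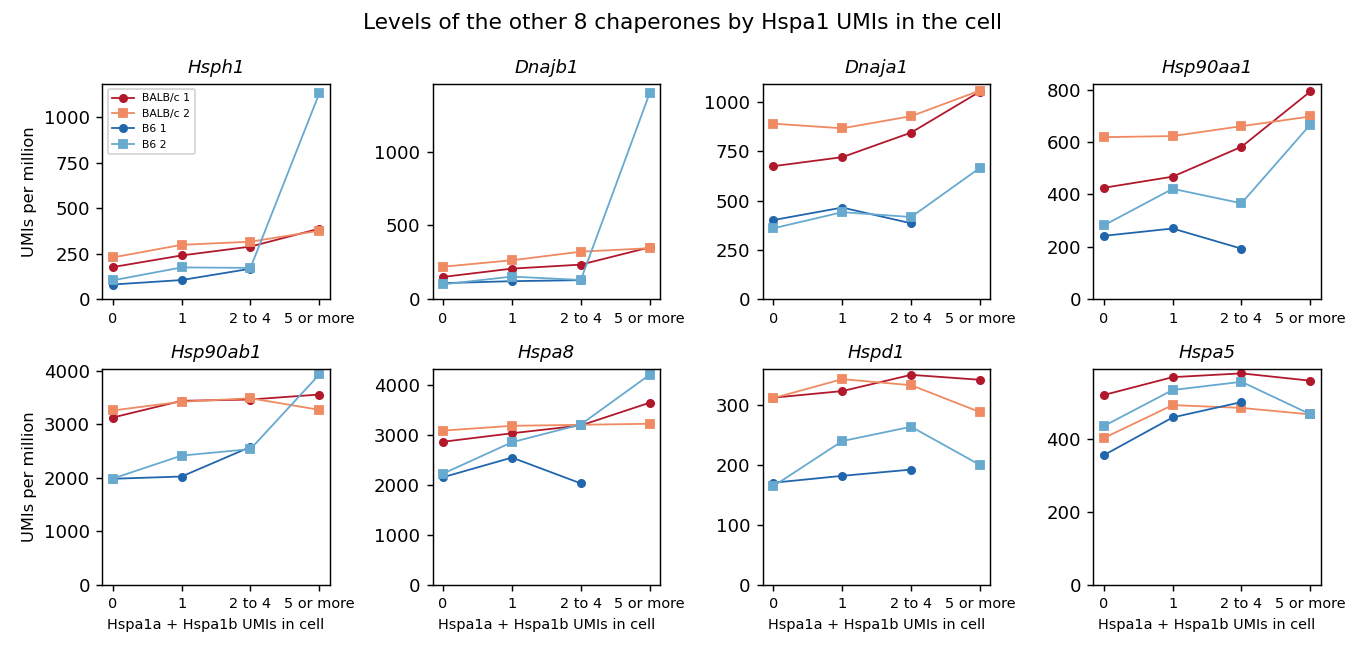
Level of the 8 other chaperones in CPM (axes from 0) in thinned cells grouped by Hspa1a plus Hspa1b UMIs, 1 line per library. Hsph1 and Dnajb1 climb with Hspa1 in both BALB/c libraries; the last B6 2 point stands for 5 cells and B6 1 has none there.

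Correlations across thinned cells were weak, as is usual for sparse counts, and are given as a description. Over the 15 pairs of inducible members the mean Pearson r was 0.15 and 0.12 in BALB/c 1 and 2, against 0.05 and 0.06 in B6 1 and 2. Over the 24 pairs of an inducible with a constitutive or organelle member it was 0.10 and 0.08, against 0.06 and 0.08. Over the 6 pairs of the latter kind it was 0.18 and 0.20, against 0.15 and 0.18. Hsp90ab1 with Hspa8 had r of 0.36 and 0.34, against 0.25 and 0.34, and Hspa1a with Hspa1b 0.32 and 0.28, against 0.13 and 0.17. Within iNKT1-like cells of BALB/c 1 and 2, the mean r was 0.174 and 0.091 for inducible pairs. It was 0.115 and 0.067 there for inducible with constitutive or organelle members. Within iNKT2-like cells these means were 0.106 and 0.091 for inducible pairs and 0.115 and 0.087 for the mixed pairs. The values over all cells and the ranking below mix classes, and the part of class was not tested. Among 5574 genes ranked by their mean r with Hspa1 over 4 libraries, Hsph1 ranked 2, Dnajb1 13, Hspa8 20, Hsp90aa1 34, Hsp90ab1 39, Dnaja1 52, Hspa5 86 and Hspd1 414. The non-member genes most like Hspa1 were Cd7, S100a6, Nkg7, Cxcr6, Il7r, Jund, Xcl1, Cd52, Il2rb and Klrd1, with mean r from 0.14 for Cd7 to 0.09 for Klrd1. These means rest on BALB/c: Cd7 had r of 0.22 and 0.26 in BALB/c, against 0.067 and 0.024 in B6, and Il7r 0.18 and 0.25, against 0.0042 and -0.024.

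Other genes of the pathway were taken as whole lists, chosen with earlier results known. Of 16 tested among 18 other HSF1 targets, 8 rose in BALB/c and 1 fell over all kept cells, with a median log2 change of 0.63. Hspb1, a small heat shock protein, stood at 5.34 and 6.47 CPM in BALB/c, against 0.305 and 0.432 CPM in B6 (3.98 ± 0.31, edgeR adjusted p = 0.0152). Hspa4l, a relative of Hsph1, stood at 67.3 and 69.4 CPM, against 27.1 and 31.6 CPM (1.26 ± 0.10, adjusted p = 0.0152).

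Other chaperone systems had few calls over all kept cells. None of the 8 subunits of the cytosolic chaperonin TRiC, the 20 endoplasmic reticulum stress genes or the 13 mitochondrial chaperones and proteases were called, with median log2 changes of 0.27, 0.16 and 0.05. Of 21 tested co-chaperones of Hsp70 and Hsp90, 2 rose, St13 (0.56 ± 0.07) and Dnaja4 (0.69 ± 0.12). Of 4 tested heat shock factor genes only Hsf4 changed (-1.001 ± 0.156), and 15 tested oxidative and proteotoxic stress genes gave 1 rise and 1 fall. In the deeper Hspa1-holding cells, 7 of 8 TRiC subunits and 10 of 19 endoplasmic reticulum stress genes rose, where 8.37% of 12323 genes were called higher. Of the stress genes 1 fell, and Sdf2l1 changed by 0.88 ± 0.08. After thinning, where 1.29% of 10359 genes were called higher, edgeR called 0 of the 8 TRiC subunits (1 at an unadjusted p under 0.05). Of the 19 endoplasmic reticulum stress genes 4 rose and 1 fell.

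Within classes, other HSF1 targets rose in 5 of 14 tested in iNKT1-like cells, 8 of 16 in iNKT2-like cells and 5 of 14 in iNKT17-like cells, with 1 fall in each. In iNKT1-like cells these included Bag3, a co-chaperone of Hsp70 (2.32 ± 0.33, edgeR adjusted p = 0.0136), Cacybp (1.15 ± 0.14) and Stip1, which links Hsp70 to Hsp90 (0.87 ± 0.13). In Hspa1-holding cells, where 8.37% of 12323 genes were called higher, 8 of 16 rose and none fell. Hspe1, the partner of Hspd1 (0.56 ± 0.07, edgeR adjusted p = 0.000469), and Stip1 (0.54 ± 0.07) led them. After thinning, 1 of 15 tested rose, Stip1.

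Markers of other cell types that the sort could hold were added up in each library. The 5 gamma-delta T markers stood at 447 and 387 CPM in BALB/c, against 226 and 219.99 CPM in B6, so they were higher in both BALB/c libraries. This list also ranked next after the own list of iNKT2-like cluster 1 and iNKT17-like cluster 2 (mean log2 folds 0.11 and 0.25). Both classes made up more of BALB/c than of B6 cells. The 6 B cell markers were lower in BALB/c, at 63.0 and 126 CPM, against 223 and 137 CPM. The 7 myeloid markers (178 and 250.1 CPM, against 208 and 129 CPM) and 5 regulatory T markers (149.8 and 145 CPM, against 77.2 and 146 CPM) overlapped between the strains. No marker of these 4 lists was at 0 in every library, and their part in the strain differences was not tested.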

How the data were processed

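The authors deposited raw UMI counts per gene and barcode, aligned to mm10 with Cell Ranger 7.1.0 per the submitters' processing notes. Per the file headers, B6 2 came from version 7.1.0 and the remaining libraries from 6.0.0. No source used here states whether introns were counted.

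Kept barcodes had at least 500 genes, at least 1000 UMIs and at most 10% mitochondrial UMIs; the top doublet scores, 0.8% per 1000 barcodes, were removed. Clusters (scanpy 1.11.5, 2000 variable genes, 30 components, 15 neighbours, Leiden resolution 1) were named from marker lists, by within-library folds adopted after class shares had been seen; rebuilt names may differ from the study's.

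Sums per library were tested with edgeR 4.0.16 (TMM, filterByExpr, adjusted p under 0.05), which was tested on simulated data; DESeq2 1.42.0 was an alternative. SE is the absolute log2 change over the square root of F. CPM has no scaling factor. Pearson r used log(1 + UMIs). Named genes were the members, up to 4 called genes of lowest p per list, and the 10 genes most like Hspa1 among those in at least 5% of thinned cells of every library, without predicted, TCR, immunoglobulin and H2 genes. Members and lists were chosen with earlier results of these data known. One called gene of the lists is counted but not reported here.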

Additional observations from a re-analysis of the deposited data

Results flagged for a closer look

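The strain effect on 8 members differed between iNKT2-like and iNKT1-like cells by the interaction test of edgeR, in which 6.8% of all genes were called lower and 6.22% higher. Only Hsp90aa1 and Hspa5 held under each alternative tried. The difference on the log2 scale was -0.59 for Hspa1a, -0.81 for Hspa1b, -0.38 for Hsph1, -0.35 for Dnajb1, -0.40 for Dnaja1, -0.92 for Hsp90aa1, -0.44 for Hspd1 and 0.37 for Hspa5. Hspa1a turned to 0.653 without B6 2.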

How the results depend on the processing

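Of 784 recomputed member fold changes, 621 kept direction and call, 68 gained a call, 83 lost one and 12 changed sign; the cause was not tested. Over all kept cells, 937 genes and 6 members were called, against 1673 and 10 with DESeq2, 264 and 1 with the replicate block, and 0 to 5203 genes and 0 to 10 members with 1 library left out. In iNKT1-like cells 464 genes became 1298 with no filter, 1069 with the block and 0 to 3042 with 1 library left out (members 0 to 9). In iNKT2-like cells 1448 became 3183 with no filter, 907 by highest marker score and 0 to 5695 with 1 left out, and 5 members became 8 with DESeq2, 10 with no filter, 10 at Leiden resolution 1.5 and 0 to 10 with 1 left out. In iNKT17-like cells 456 became 218 with DESeq2, 1101 with no filter, 129 by marker score and 380 to 1716 with 1 left out, and 7 members became 3 by marker score and 5 to 10 with 1 left out. In iNKT0-like cells 219 became 124 with DESeq2, 743 with no filter, 142 at Leiden resolution 1.5 and 66 to 1101 with 1 left out, and 5 members became 3 with the block and 2 to 6 with 1 left out. In proliferating-like cells 198 became 836 with no filter, 330 at resolution 1.5 and 35 to 1719 with 1 left out (members 2 to 9). The interaction's 1590 genes became 512 with DESeq2 and 990 to 1500 with 1 left out, and its 8 members 4 with DESeq2, 5 at resolution 1.5 and 5 to 8 with 1 left out. Hspa1-holding cells had 2027 genes called, against 1179 at 4 or more UMIs, 129 within iNKT1-like cells, 906 within iNKT2-like cells, 368 after thinning and 1090 to 1574 with 1 left out (members 6 to 8). The share difference of 39.6 points became 25.0 at 2 or more UMIs and 27.6 to 51.6 with 1 left out. The mean r of inducible with constitutive members in B6 became 0.049 after thinning to 2000 UMIs.

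Hspa5 in iNKT0-like cells turned to 0.137 without BALB/c 2 and 0.141 without B6 2 (range -0.35 to 0.141 with 1 left out) and to 0.289 at resolution 1.5. The interaction turned, without B6 2, to 0.653 for Hspa1a, 0.0188 for Hspa1b and 0.0228 for Hspa8 (lowest with 1 left out -0.87, -1.07 and -0.0395); at resolution 1.5, to 0.10 for Hsph1, 0.19 for Hsp90ab1, 0.35 for Hspa8 and 0.39 for Hspd1; and by marker score, to 0.0731 for Hsp90ab1 and 0.0346 for Hspa8. Same-numbered libraries did not deviate together (r -0.192 over all kept cells), so the numbers were not taken as pairs; crossing them, chosen after seeing the data, gave 788 genes over all kept cells and 764 in iNKT0-like cells. With 1 library left out, the lone library of a strain is assumed to vary like the other strain.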
